A study of Mus musculus with 12 samples.

Results

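A clone of mIMCD3 cells, a mouse line from the inner medullary collecting duct, that lacks *Pkd1* (*Pkd1*-/-) was compared with its wild-type (Wt) parent line. Every gene was taken whose normalized counts averaged 10 or more in the 8 libraries of these genotypes, which was the case for 13753 of the 47642 genes listed. The study asked which transcripts change in kidney tubule cells that lack a polycystin. It sequenced RNA from 12 libraries, 4 of Wt, 4 of *Pkd1*-/- and 4 of *Pkd2*-/- cells. The *Pkd2*-/- libraries serve here as background, though the spread between them also enters the limma tests.

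All lines derive from mIMCD3, an epithelial line from mice that carried the early region of SV40, which keeps the cells dividing. Wt cells carry no targeted deletion. Both *Pkd1* alleles of the knockout were removed with CRISPR, in GRCm38 coordinates chr17:24550055-24594963 on one allele and chr17:24550106-24594903 on the other. The knockout is 1 clone, and its 4 libraries come from different dishes harvested 4 days after full confluency, chosen from 6 dishes by the purity of their RNA. P-values from limma therefore measure the spread between dishes within each line, pooled over the Wt, *Pkd1*-/- and *Pkd2*-/- libraries. A difference made by the deletion cannot be told apart from one that the clone carried for another reason. The *Pkd2*-/- cells, another clone made with TALENs, were grown in the same way.

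*Pkd1* encodes polycystin-1, a large membrane protein that forms a receptor-channel complex with polycystin-2, the product of *Pkd2*, in the primary cilium and at cell contacts. Loss of either protein in tubule cells gives rise to the cysts of autosomal dominant polycystic kidney disease. Collecting duct epithelium is polarised, joined by cadherin and desmosome contacts, rests on a laminin and collagen IV basement membrane, and reabsorbs salt and water.

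The deposited values are read counts divided by a size factor of the library and rounded. They sum to between 25966273 and 26859930 per Wt library and between 26132745 and 26314333 per *Pkd1*-/- library. For 4 of the 8 libraries the whole numbers that the rescaling skipped gave an estimate of reads on genes, 23.2 to 25.1 in units of 1e6, and for the other 4 the number of reads is unknown. In the median gene the SD between dishes was 7.47% of the mean in Wt and 6.62% in *Pkd1*-/- cells. *Cdh1*, the E-cadherin gene that marks epithelium, had 13291 to 13995 counts in Wt and 13319 to 14334 in *Pkd1*-/- libraries. *Aqp2* and *Avpr2*, the water channel and vasopressin receptor that define principal cells in the kidney, had at most 1 count in any of these libraries. Of 10 leukocyte, 9 endothelial and 11 fibroblast and pericyte markers, 5, 5 and 4 had at most 3 counts in each of the 8 libraries.

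*Pkd1* itself had 682, 688, 883 and 876 normalized counts in the 4 Wt libraries and 40, 49, 48 and 30 in the *Pkd1*-/- libraries. Every knockout library lay far below every Wt library, and the knockout mean was 5.34% of the Wt mean. The change passed the test (log2 fold change −4.21, standard error 0.15, adjusted p = 1.87e-12 from limma), and an exact permutation test gave p = 0.0286, the smallest that 4 libraries against 4 allow. The deletions remove 90.4% and 89.8% of the 17415 annotated exon bases of the gene, so reads from the remaining exons could still be counted. *Tsc2*, the adjacent gene whose product restrains mTOR, had 4469 to 4824 counts in Wt and 4712 to 5118 in *Pkd1*-/- libraries and did not pass (log2 fold change 0.08, adjusted p = 0.24 from limma). Among other genes within 100 kb of the deletion, *Slc9a3r2*, a scaffold of the sodium-hydrogen exchanger, and *Pgp*, a phosphoglycolate phosphatase, each rose by 0.29 on the log2 scale (limma adjusted p = 0.00551 and 0.0104). *E4f1*, *Caskin1* and *Gfer*, also within 100 kb, did not pass (log2 fold change 0.06, 0.14 and −0.05, adjusted p = 0.655, 0.756 and 0.596 from limma). The median over 51 tested neighbours at chr17:23575844-24936977 was 0.08, and 17.9% of all tested genes passed higher.

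Over all 13753 genes, 35.7% passed an adjusted p under 0.05 (limma), 17.9% higher and 17.7% lower in *Pkd1*-/- cells. At this threshold and with a fold change of at least 2, a combination termed called below, 5.69% of the genes stood out, of which 355 were higher (2.58%) and 427 lower (3.1%). The median log2 fold change of all tested genes was 0.01, and in 34.4% of them the Wt and *Pkd1*-/- libraries did not overlap. These shares are the background against which the counts of each gene list are to be read. The share of members that passed is plotted for a choice of these lists.

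**Figure D1:**
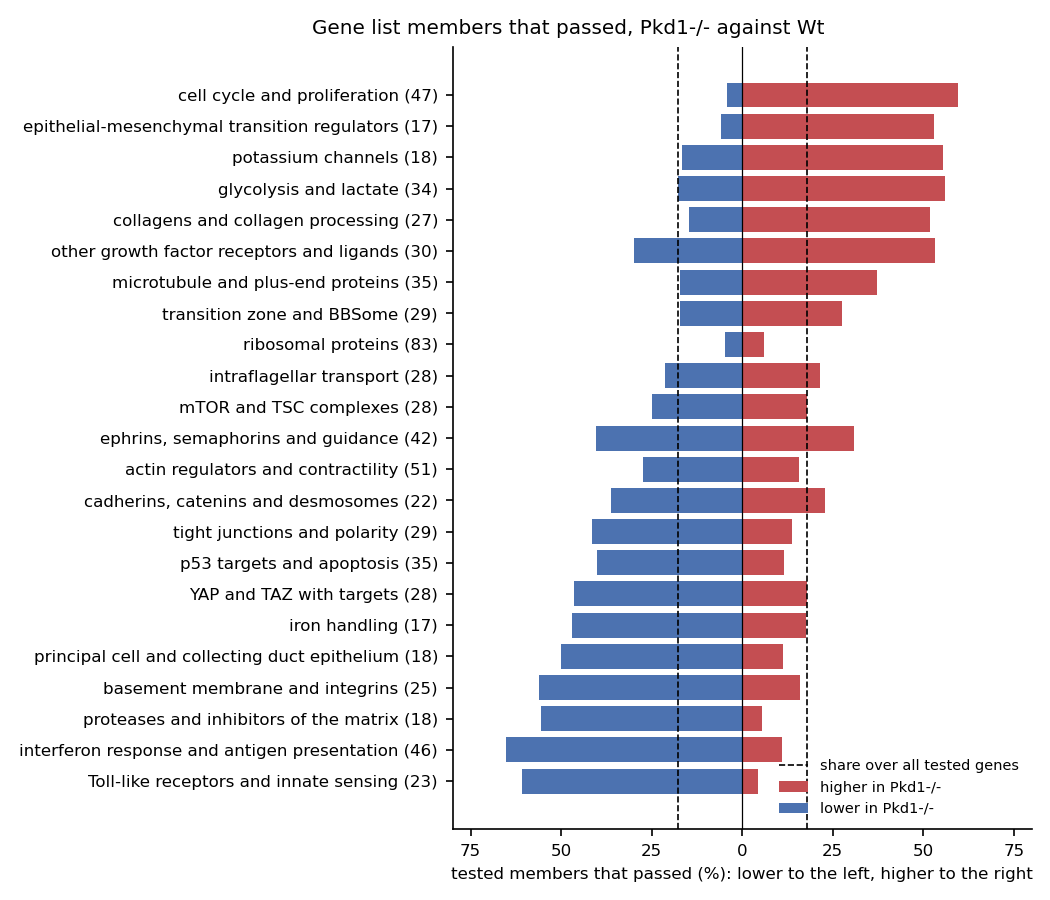
Share of the tested members of each gene list that passed (adjusted p under 0.05, limma), in percent, higher in *Pkd1*-/- cells to the right and lower to the left, with the number tested in brackets. The dashed lines mark the shares over all tested genes, 17.9% higher and 17.7% lower; interferon and Toll-like receptor genes extend furthest to the left and cell cycle genes furthest to the right.

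The genes that rose most in the *Pkd1*-/- clone were ones with almost no transcript in Wt cells. *Gfra1* encodes the receptor for the growth factor GDNF, which drives ureteric bud branching in the embryo. It had 0, 0, 2 and 4 normalized counts in Wt and 1837, 1941, 1884 and 2043 in *Pkd1*-/- libraries (log2 fold change 9.93, standard error 0.40, adjusted p = 8.23e-12 from limma). All knockout libraries were high and all Wt libraries near 0, as were the *Pkd2*-/- libraries with a mean of 4.75. *Ret*, the kinase through which GFRA1 signals, had 0 counts in all 8 libraries. *Gdnf*, the ligand, had 113, 89, 115 and 165 counts in Wt and 227, 317, 262 and 251 in the clone, without overlap (log2 fold change 1.15, adjusted p = 0.00013 from limma).

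Genes of axon and cell guidance changed in both directions. Ephrins and their Eph receptors sort cells at boundaries, Robo receptors bind Slit proteins, and semaphorins and netrins steer migrating cells. Of 42 tested members of this list, 13 passed higher (31%) and 17 lower (40.5%), with 8 and 6 called, against 17.9% and 17.7% passed over all genes. *Robo1* had 8, 7, 9 and 9 counts in Wt and 502, 584, 588 and 579 in *Pkd1*-/- libraries (log2 fold change 5.93, adjusted p = 1.64e-11 from limma). *Robo2* had 4, 2, 5 and 2 against 274, 284, 266 and 283 (log2 fold change 6.10, adjusted p = 6.1e-11 from limma). Both receptors were under 10 counts in every Wt library and above 250 in every knockout library. Of the Eph receptors, *Epha3* had 21, 8, 18 and 18 counts in Wt and 600, 714, 686 and 710 in the clone (log2 fold change 5.37, adjusted p = 5.45e-11 from limma). *Ephb3* had 21, 45, 30 and 17 against 671, 719, 639 and 690 (log2 fold change 4.63, adjusted p = 2.49e-10 from limma). *Epha6* and *Epha5*, with at most 2 counts in any Wt library, were at least 27.3-fold and 19.4-fold higher. All of these receptors were at or next to 0 in *Pkd2*-/- cells.

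Other Eph and ephrin genes fell. *Ephb2* had 1075, 1006, 919 and 886 counts in Wt and 86, 97, 97 and 100 in *Pkd1*-/- libraries (log2 fold change −3.34, standard error 0.09, adjusted p = 7.71e-14 from limma). Its *Pkd2*-/- mean was 902 counts, and the clones differed by −3.23 on the log2 scale (limma adjusted p = 1.38e-14, a comparison that 58.8% of all genes passed). *Efnb2*, the membrane-bound ligand ephrin-B2, had 1129 to 1348 counts in Wt and 189 to 243 in the clone (log2 fold change −2.55, adjusted p = 2.3e-11 from limma). *Epha4* fell by 1.37 and *Ntn4*, which encodes the basement membrane netrin-4, by 1.46 on the log2 scale (limma adjusted p = 1.58e-07 and 2.03e-11). *Sema5a* and the netrin receptor *Unc5b*, with at most 3 counts in any *Pkd1*-/- library, were at least 14.2-fold and 7.75-fold lower. In none of the guidance genes named here did a Wt library overlap with a *Pkd1*-/- library, against 34.4% of all tested genes without overlap. These genes were named for large changes, some also for separate groups, so the separation follows in part from the choice.

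**Figure D2:**
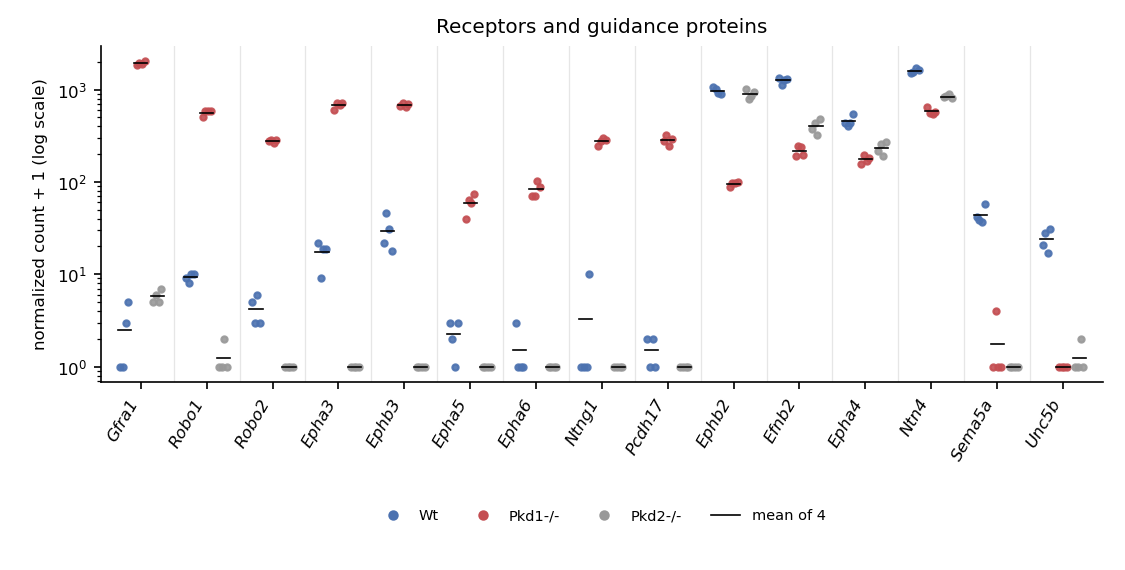
Normalized count plus 1 (log axis) of 15 receptors and guidance proteins, with 1 point per library for Wt (blue), *Pkd1*-/- (red) and *Pkd2*-/- (grey) cells and a line at the mean of 4. The genes from *Gfra1* to *Pcdh17* are higher in every *Pkd1*-/- library than in any Wt library, and those from *Ephb2* to *Unc5b* are lower.

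Adhesion proteins and transcription factors of development were also among the genes near 0 in Wt cells. *Pcdh17*, a protocadherin, had 1, 0, 1 and 0 counts in Wt and 275, 325, 241 and 293 in the clone, at least 94.5-fold higher. *Ntng1*, a membrane-anchored netrin, had 0, 0, 0 and 9 against 245, 276, 298 and 284 (log2 fold change 7.28, adjusted p = 3.73e-08 from limma). Of the transcription factors, *Pou3f4* had 0, 3, 5 and 0 against 393, 411, 423 and 458 (log2 fold change 7.57, adjusted p = 2.29e-09 from limma). *Mef2c*, known from muscle and neurons, had 5, 0, 3 and 1 against 340, 381, 392 and 371 (log2 fold change 7.14, adjusted p = 2.15e-09 from limma). The nuclear receptor gene *Rorb* was at least 47.2-fold higher, and *Dach1*, a nuclear cofactor of transcription, had 0, 6, 3 and 2 against 229, 147, 194 and 204 (log2 fold change 5.99, adjusted p = 2.28e-08 from limma). All of these were at or next to 0 in *Pkd2*-/- cells too. The endothelial marker list summed to 52 to 68 counts in Wt and 1492 to 1700 in the clone, nearly all from *Cd34*, while *Cdh5*, *Kdr*, *Tek*, *Emcn* and *Tie1* had at most 3 counts in each library.

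By the criterion of at most 3 counts in each library of one genotype and a mean of at least 50 in the other, 10 genes were near 0 in *Pkd1*-/- cells and 9 in Wt cells. *Plcb1*, a phospholipase C that acts downstream of G protein-coupled receptors to release calcium from stores, had 464, 429, 360 and 439 counts in Wt and 1, 1, 0 and 2 in the clone, at least 141-fold lower. *Tns1*, which links integrins to actin, had 251, 230, 263 and 286 against 0, 3, 1 and 0, at least 85.8-fold lower. *Glul*, glutamine synthetase, was at least 58.8-fold lower. *Evl* and *Hs6st2* were at least 227-fold and 149-fold lower. In *Pkd2*-/- cells *Evl*, *Hs6st2* and *Glul* were at or next to 0 as well. *Plcb1* and *Tns1* had *Pkd2*-/- means of 14 and 32.8 counts, also below their Wt levels. Of the genes near 0 in *Pkd1*-/- cells 6 of 10, and of those near 0 in Wt cells 8 of 9, also had at most 3 counts in *Pkd2*-/- cells. *Marcks*, a membrane-bound protein that binds actin, had 4348 to 5012 counts in Wt and 375 to 440 in the clone, one of the 5 largest falls in count among called genes (log2 fold change −3.53, adjusted p = 6.72e-16 from limma).

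Ligands and receptors of further growth factors were higher more often than lower. Of 30 tested members, 16 passed higher (53.3%) and 9 lower (30%), with 10 and 2 called and a median log2 fold change of 0.48. *Pdgfa*, a platelet-derived growth factor, had 500, 475, 500 and 435 counts in Wt and 1390, 1242, 1317 and 1343 in the clone (log2 fold change 1.47, adjusted p = 2.3e-11 from limma). Its block of neighbours on chromosome 5 had a median of 0.40. *Pdgfc* had 11, 5, 9 and 8 against 81, 83, 78 and 79 (log2 fold change 3.18, adjusted p = 2.23e-07 from limma). *Pdgfd* had 340, 293, 349 and 327 against 16, 12, 16 and 13 (log2 fold change −4.43, adjusted p = 8.37e-12 from limma). PDGF ligands thus changed in opposite directions, each with separate groups. *Nrp2*, a neuropilin that binds VEGF and semaphorins, rose, with 187 to 269 counts in Wt and 761 to 928 in the clone (log2 fold change 1.81, adjusted p = 8.91e-10 from limma). *Vegfc*, a lymphatic growth factor, was at least 9.5-fold higher and *Fgfr1*, a fibroblast growth factor receptor, at least 7.08-fold higher, both under 40 counts in every library. *Fgf9* fell, with 45 to 78 counts in Wt and 8 to 16 in the clone (log2 fold change −2.35, adjusted p = 4.2e-07 from limma).

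Genes of Wnt signalling were near the background in number, with 6 of 30 tested members higher (20%) and 8 lower (26.7%). The ligand gene *Wnt10a* had 101, 77, 96 and 90 counts in Wt and 1046, 1094, 1185 and 1035 in the clone (log2 fold change 3.57, adjusted p = 7.19e-08 from limma). *Wnt6* had 26, 35, 37 and 51 against 158, 152, 203 and 154 (log2 fold change 2.16, adjusted p = 1.6e-06 from limma). Both ligands were separate between groups and had *Pkd2*-/- means of 1.75 and 0. *Wnt7b*, a Wnt ligand of the collecting duct, fell, with 13667 to 15245 counts in Wt and 10520 to 11099 in the clone (log2 fold change −0.45, adjusted p = 4.38e-07 from limma).

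Cell contacts of the epithelium were divided. E-cadherin, whose levels are given above, did not pass (log2 fold change 0.03, adjusted p = 0.674 from limma), whereas desmosome genes were lower. *Dsp*, encoding desmoplakin, the plaque protein that ties desmosomes to keratin filaments, had 3288, 2848, 2919 and 3008 counts in Wt and 576, 735, 685 and 699 in *Pkd1*-/- libraries (log2 fold change −2.16, standard error 0.08, adjusted p = 2.21e-12 from limma). The desmosomal cadherin gene *Dsg2* fell, with 826 to 895 counts in Wt and 319 to 348 in the clone (log2 fold change −1.38, adjusted p = 4.41e-11 from limma). Its relative *Dsc2* fell, with 544 to 585 counts in Wt and 203 to 282 in the clone (log2 fold change −1.25, adjusted p = 6.52e-09 from limma). Every knockout library was below every Wt library in these 3 genes. In *Pkd2*-/- cells *Dsp* had a mean of 7578 counts, and the clones differed by −3.49 on the log2 scale (limma adjusted p = 1.03e-15). *Cdh2*, encoding N-cadherin, had 95, 103, 121 and 135 in Wt against 275, 375, 317 and 325 in the clone (log2 fold change 1.51, adjusted p = 3.55e-08 from limma). It was also high in *Pkd2*-/- cells, with a mean of 439.5 counts. *Cdh6*, a cadherin of developing kidney tubules, had 218 to 271 against 81 to 106 (log2 fold change −1.35, adjusted p = 1.27e-08 from limma). Of 22 tested cadherin, catenin and desmosome genes, 5 passed higher (22.7%) and 8 lower (36.4%), with 2 and 4 called.

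Tight junction and polarity genes passed lower in 12 of 29 tested members (41.4%) and higher in 4 (13.8%). *Cxadr*, a junctional adhesion receptor, had 15805, 14252, 15078 and 16725 counts in Wt and 7033, 7306, 7207 and 7342 in the clone, one of the 5 largest falls in count among called genes (log2 fold change −1.10, adjusted p = 1.87e-10 from limma). Its block of neighbours on chromosome 16 had a median of −0.20. *Cgnl1*, which anchors junctions to actin, fell, with 2068 to 2344 counts in Wt and 856 to 1057 in the clone (log2 fold change −1.17, adjusted p = 7.08e-10 from limma). *Cldn4*, a claudin of the collecting duct, fell, with 5508 to 6755 counts in Wt and 3800 to 4218 in the clone (log2 fold change −0.66, adjusted p = 4.74e-07 from limma). *Krt19*, a keratin of simple epithelia, had 4579, 4850, 4429 and 4030 counts in Wt and 1314, 1278, 1418 and 1306 in the clone (log2 fold change −1.75, adjusted p = 5.41e-13 from limma). Its *Pkd2*-/- mean was 1409, and the clones differed by −0.09 on the log2 scale (limma adjusted p = 0.196). *Vim*, the vimentin gene of mesenchymal cells, had 43, 27, 31 and 32 against 211, 185, 202 and 179 (log2 fold change 2.53, adjusted p = 7.47e-08 from limma), a low count in both groups.

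Regulators of the epithelial-mesenchymal transition, largely transcription factors that repress the epithelial state, passed higher in 9 of 17 tested members (52.9%) and lower in 1 (5.88%). *Twist1* had 4, 3, 9 and 10 counts in Wt and 91, 102, 88 and 60 in *Pkd1*-/- libraries (log2 fold change 3.63, adjusted p = 1.39e-06 from limma). *Twist2* rose, with 3 to 9 counts in Wt and 19 to 29 in the clone (log2 fold change 1.97, adjusted p = 0.000159 from limma). *Zeb2* rose, with 56 to 84 counts in Wt and 121 to 162 in the clone (log2 fold change 1.06, adjusted p = 2.67e-05 from limma), though by 0.96 without Wt replicate 3. The groups were separate in each case and the levels low. *Zeb1* did not pass, with 5 to 12 against 10 to 17 counts (log2 fold change 0.73, adjusted p = 0.12 from limma), and *Snai2* had 0 counts in all 8 libraries.

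The extracellular matrix changed in composition. Of 27 tested collagen and collagen-processing genes, 14 passed higher (51.9%) and 4 lower (14.8%), with 8 and 3 called. *Col11a1*, a fibrillar collagen known from cartilage, had 346, 343, 409 and 335 counts in Wt and 6922, 7624, 7452 and 7484 in the clone (log2 fold change 4.36, standard error 0.20, adjusted p = 3.47e-11 from limma), with a *Pkd2*-/- mean of 0.5. *Col3a1*, a fibrillar collagen of connective tissue, rose, with 3 to 7 counts in Wt and 62 to 69 in the clone (log2 fold change 3.62, adjusted p = 0.00448 from limma). *Col16a1* rose, with 12 to 36 counts in Wt and 86 to 109 in the clone (log2 fold change 2.06, adjusted p = 4.67e-05 from limma). The basement membrane collagens went the other way. *Col4a1* had 69, 38, 56 and 69 against 1, 4, 0 and 2 counts (log2 fold change −4.62, adjusted p = 3.33e-07 from limma). Its *Pkd2*-/- mean was 2.75, and the difference between the clones did not pass (limma adjusted p = 0.22). *Col4a2* had 74, 78, 94 and 68 against 11, 7, 7 and 5 (log2 fold change −3.26, adjusted p = 1.18e-08 from limma). *Col4a3*, a chain of the mature kidney network, fell, with 1552 to 1772 counts in Wt and 717 to 877 in the clone (log2 fold change −1.03, adjusted p = 8.98e-09 from limma), and it lay just under 2-fold without *Pkd1*-/- replicate 1 or Wt replicate 3.

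Basement membrane and integrin genes passed lower in 14 of 25 tested members (56%) and higher in 4 (16%). *Nid2*, a nidogen that bridges laminin and collagen IV, and *Itgb3*, the integrin beta-3 subunit, fell by 2.94 and 2.93 on the log2 scale (limma adjusted p = 0.000132 and 9.88e-08). *Itga2*, a collagen receptor subunit, fell, with 209 to 302 counts in Wt and 58 to 104 in the clone (log2 fold change −1.65, adjusted p = 9.15e-07 from limma). Proteases of the matrix and their inhibitors passed lower in 10 of 18 (55.6%) and higher in 1 (5.56%). *Mmp15*, a membrane-type metalloprotease, had 286, 236, 237 and 241 against 35, 50, 51 and 44 counts (log2 fold change −2.46, adjusted p = 7.31e-11 from limma). *Plau*, urokinase, fell, with 1164 to 1348 counts in Wt and 598 to 644 in the clone (log2 fold change −1.02, adjusted p = 2.81e-09 from limma), just under 2-fold without Wt replicate 3 or 4. Secreted matricellular and fibre proteins passed lower in 9 of 20 (45%) and higher in 6 (30%), with 3 and 3 called and a median of −0.25. *Fstl1*, in a chromosome 16 block with a median of −0.19, fell from a mean of 192.75 to 8.75 counts (log2 fold change −4.34, adjusted p = 3.06e-09 from limma). *Postn* (periostin) rose, with 81, 74, 24 and 43 against 311, 286, 295 and 294 counts (log2 fold change 2.54, adjusted p = 0.00577 from limma). *Mgp*, an inhibitor of calcification, had 15, 10, 11 and 12 against 184, 198, 195 and 178 (log2 fold change 3.88, adjusted p = 1.12e-09 from limma).

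The fibroblast and pericyte markers that could be tested were *Col3a1*, *Dcn*, *Acta2* and *Postn*. The whole list summed to 186 to 256 counts in Wt and 446 to 516 in the clone, with *Pdgfra*, *Lum*, *Ren1* and *Rgs5* at or under 3 counts in every library. *Dcn*, decorin, had 17, 27, 40 and 19 counts in Wt and 20, 19, 23 and 18 in the clone and did not pass (log2 fold change −0.28, adjusted p = 0.493 from limma). *Acta2*, smooth muscle actin, was lower, with 143, 109, 115 and 111 against 76, 127, 67 and 60, overlapping groups, and it did not pass in 6 of 17 alternative fits (log2 fold change −0.58, adjusted p = 0.0305 from limma). The part of other cells in the matrix values was not tested.

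**Figure D3:**
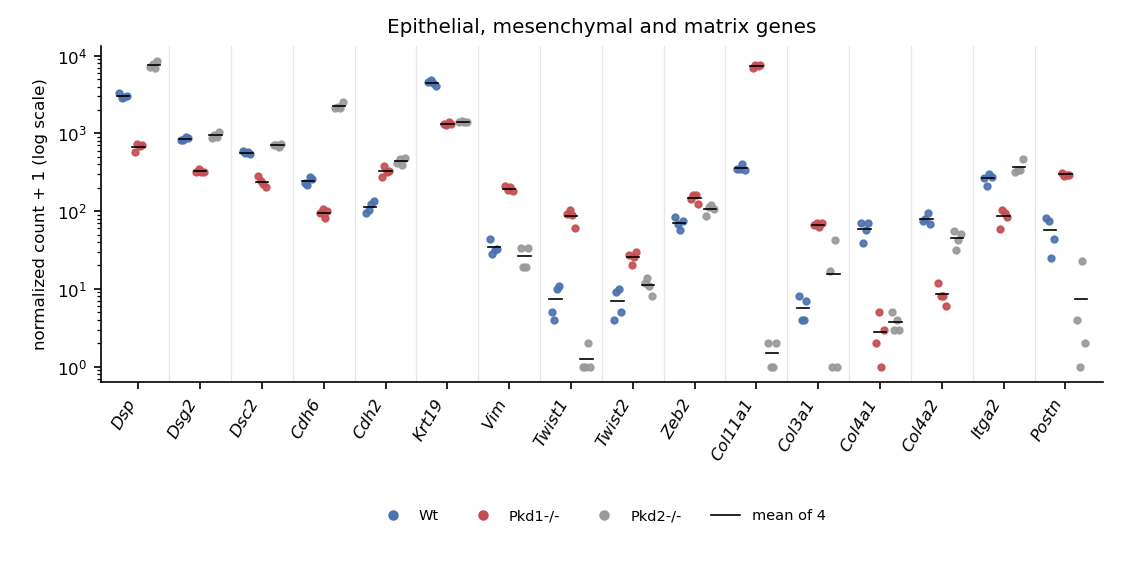
Normalized count plus 1 (log axis) of 16 epithelial, mesenchymal and matrix genes, 1 point per library, for Wt (blue), *Pkd1*-/- (red) and *Pkd2*-/- (grey) cells, with a line at the mean of 4. *Dsp*, *Dsg2*, *Dsc2* and *Cdh6* are lower in *Pkd1*-/- than in both other genotypes, and *Col11a1* has 6922 to 7624 counts in *Pkd1*-/- libraries against 335 to 409 in Wt.

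Markers of collecting duct epithelium passed lower in 9 of 18 tested genes (50%) and higher in 2 (11.1%), and their sum was 103198 to 112360 counts in Wt and 93597 to 95741 in the clone. Among them, *Emx2* rose (log2 fold change 0.33, adjusted p = 0.000346 from limma), and *Hsd11b2* had log2 fold changes of 0.51 to 0.59 over the alternative fits. *Epcam* did not pass (log2 fold change −0.10, adjusted p = 0.128 from limma), nor did *Cdh1*. *Gata3*, a transcription factor required for the nephric duct, had 248, 176, 236 and 247 counts in Wt and 56, 48, 48 and 42 in the clone (log2 fold change −2.20, adjusted p = 2.24e-09 from limma). *Scnn1g*, a subunit of the sodium channel ENaC, fell, with 876 to 988 counts in Wt and 249 to 347 in the clone (log2 fold change −1.62, adjusted p = 6.04e-10 from limma). The chloride channel gene *Cftr*, which is not on this list, had 46, 34, 23 and 31 against 6, 0, 0 and 0 (log2 fold change −4.37, adjusted p = 2.16e-05 from limma). Its *Pkd2*-/- mean was 0.25 counts. *Gata3*, *Scnn1g* and *Cftr* were lower in every knockout library. *Foxj1*, a regulator of motile cilia, fell, with 667 to 777 counts in Wt and 159 to 200 in the clone, and its mean in the clone was 25% of Wt (limma adjusted p = 2.29e-11). *Osr1*, an early kidney transcription factor, rose, with 44 to 74 counts in Wt and 274 to 336 in the clone (log2 fold change 2.32, adjusted p = 1.8e-08 from limma). *Atp6v1b1*, a proton pump subunit of intercalated cells, had 65, 76, 58 and 29 against 528, 437, 544 and 543 counts (log2 fold change 3.22, adjusted p = 3.91e-07 from limma), and the intercalated cell factor *Foxi1* had 0 in all 8 libraries. *Car2*, the other of the 2 tested intercalated cell markers, fell from a mean of 918 to 736 counts (log2 fold change −0.32, adjusted p = 0.00115 from limma). *Pkhd1*, the gene of recessive polycystic kidney disease, had 552, 499, 650 and 682 counts in Wt and 198, 242, 213 and 273 in *Pkd1*-/- libraries (log2 fold change −1.36, adjusted p = 1.0e-07 from limma). Over the 23 tested polycystin and polycystic kidney disease genes, 8 passed lower (34.8%) and 3 higher (13%), with the deleted *Pkd1* counted among them. Without the 1 member on chromosome 5, 7 of 22 passed lower and 3 higher, *Pkd1* still included.

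Potassium channel genes passed higher in 10 of 18 tested members (55.6%) and lower in 3 (16.7%), with 7 and 2 called. *Kcnj16*, an inward rectifier of the basolateral membrane, had 1500, 1404, 1400 and 1572 counts in Wt and 134, 162, 150 and 161 in the clone (log2 fold change −3.27, standard error 0.08, adjusted p = 9.47e-15 from limma). *Kcnj2*, an inward rectifier whose gene lies beside it on chromosome 11, fell, with 142 to 168 counts in Wt and 29 to 36 in the clone (log2 fold change −2.17, adjusted p = 2.28e-08 from limma). The voltage-gated channel gene *Kcnh3* rose, with 9 to 17 counts in Wt and 71 to 83 in the clone (log2 fold change 2.47, adjusted p = 1.39e-05 from limma), and *Kcnd1* rose, with 15 to 21 counts in Wt and 82 to 108 in the clone (log2 fold change 2.30, adjusted p = 1.35e-08 from limma). These rises were at low counts.

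The interferon response list had the largest share of members that fell among the lists with at least 10 tested genes. Interferons act through receptors whose signal leads to the binding of a response element in the promoters of antiviral genes, and many cells keep a low level of these transcripts without infection. Of 46 tested members, 30 passed lower (65.2%) and 5 higher (10.9%), with 13 and 1 called, and the median over the list was −0.45 on the log2 scale. For *Pkd2*-/- cells, compared with the same Wt libraries, it was 0.52. Of the list, 6 tested members lie on chromosome 5, and without them 25 of 40 passed lower and 4 higher, with a median of −0.36.

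Promoter windows from 250 bases before to 50 after the annotated start (RefSeq, GRCm38.p6) were found for 25 of the 30 members that fell. The motif GAAANNGAAA, from the interferon-stimulated response element, was searched on both strands. It was present in 16 of these 25 windows (64%), in 4 of the 13 windows found for the other 16 tested members (30.8%), and in 952 of all 27025 promoters of this length (3.52%). Of the 9610 tested genes with a window, 69.9% of those tested, 277 held it (2.88%). The list was chosen for its interferon genes, so a share above the background follows from that choice. The difference between members that fell and the others was not tested. The sequences below are 40 bases before the start of members that fell, chosen because their promoters hold the motif and because the list is described by their counts. The motif is in capitals on the strand of the gene, so that a match on the opposite strand reads TTTCNNTTTC, and where a window held several matches the one farthest from the start is shown.
Rsad2, chr12:26456548-26456587, minus strand: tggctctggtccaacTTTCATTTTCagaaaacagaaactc
Gbp3, chr3:142559984-142560023, plus strand: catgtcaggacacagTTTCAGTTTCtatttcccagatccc
Oas3, chr5:120777710-120777749, minus strand: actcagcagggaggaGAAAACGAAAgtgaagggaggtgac
Irgm1, chr11:48871426-48871465, minus strand: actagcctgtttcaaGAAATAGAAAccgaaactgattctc
Ifit3, chr19:34583358-34583397, plus strand: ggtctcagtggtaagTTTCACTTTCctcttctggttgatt
Ifit1, chr19:34640770-34640809, plus strand: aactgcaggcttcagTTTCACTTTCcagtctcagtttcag
Isg15, chr4:156200872-156200911, minus strand: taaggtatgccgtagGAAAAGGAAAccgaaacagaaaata
The motif began 120 bases before the start in *Rsad2*, 45 in *Gbp3*, 75 in *Oas3*, 30 in *Irgm1*, 156 in *Ifit3*, 104 in *Ifit1* and 78 in *Isg15*. A match describes the letters only, and binding was not measured.

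*Rsad2*, encoding viperin, had 162, 184, 230 and 314 counts in Wt and 29, 12, 18 and 23 in the clone (log2 fold change −3.40, standard error 0.23, adjusted p = 5.03e-09 from limma). *Gbp3*, a guanylate-binding GTPase, had 184, 153, 223 and 299 against 44, 38, 41 and 56 (log2 fold change −2.21, adjusted p = 3.31e-08 from limma). *Usp18*, which limits interferon signalling, had 242, 308, 322 and 341 against 85, 74, 56 and 68 (log2 fold change −2.09, adjusted p = 2.22e-09 from limma). In each of these genes the highest *Pkd1*-/- library was below the lowest Wt library. In *Pkd2*-/- cells *Rsad2*, *Gbp3* and *Usp18* had means of 238, 356 and 746 counts, and the clones differed by −3.53, −2.97 and −3.39 on the log2 scale (limma adjusted p = 1.0e-09, 2.39e-10 and 1.28e-12). *Mx1*, a dynamin-like antiviral GTPase, had 33, 10, 9 and 28 counts in Wt and 0 in every *Pkd1*-/- library, at least 6.67-fold lower.

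At higher levels, *Ifit3*, an RNA-binding antiviral protein, had 6816, 6602, 6993 and 6953 counts in Wt and 3292, 3005, 2868 and 2970 in the clone, one of the 5 largest falls in count among called genes (log2 fold change −1.17, adjusted p = 8.37e-12 from limma). *Irgm1*, an immunity-related GTPase, fell, with 2745 to 3043 counts in Wt and 1302 to 1449 in the clone (log2 fold change −1.05, adjusted p = 5.08e-11 from limma). *Ifit1* fell, with 1507 to 1937 counts in Wt and 871 to 980 in the clone (log2 fold change −0.88, adjusted p = 1.46e-08 from limma) and the ubiquitin-like modifier *Isg15* fell, with 363 to 445 counts in Wt and 216 to 251 in the clone (log2 fold change −0.79, adjusted p = 2.7e-06 from limma). Each of these also kept separate groups, with smaller changes than *Rsad2* and *Gbp3*. The oligoadenylate synthetase genes *Oas1a*, *Oas2* and *Oas3*, whose products activate RNase L, fell, with log2 fold changes of −1.30, −1.79 and −2.47 (limma adjusted p = 3.48e-07, 0.000203 and 1.19e-05). These genes lie on chromosome 5, in a block with a median of 0.09. *Oasl1*, in a block with a median of 0.24, rose, with 14 to 29 counts in Wt and 33 to 51 in the clone (log2 fold change 1.24, adjusted p = 0.00131 from limma). *Ifit3* and *Ifit3b*, like *Oas1a* and *Oas1g*, are near copies of each other, so their counts may share reads and are uncertain.

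*Irf7*, a factor that is itself an interferon target, fell, with 284 to 390 counts in Wt and 150 to 197 in the clone (log2 fold change −0.92, adjusted p = 4.36e-06 from limma). The antigen presentation genes were mixed. *B2m*, the light chain of class I molecules, fell by 0.18, whereas the heavy chain genes *H2-K1* and *H2-D1* rose by 0.24 and 0.17 on the log2 scale (limma adjusted p = 0.0125, 0.00219 and 0.0395), and *H2-D1* did not pass in 9 of 17 alternative fits.

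Of 23 tested Toll-like receptor and innate sensing genes, 14 passed lower (60.9%) and 1 higher (4.35%). *Tlr1* and its paralog *Tlr6*, which recognise bacterial lipopeptides together with TLR2, are neighbours on chromosome 5, in a block with a median of −0.37. Their log2 fold changes were −4.89 and −3.05 (limma adjusted p = 8.37e-12 and 1.02e-05), and counts of such paralogs are uncertain. *Zbp1*, a sensor of Z-form nucleic acid, had 23, 30, 22 and 25 counts in Wt and 0, 0, 2 and 0 in the clone, at least 8.33-fold lower. *Cxcl10*, an interferon-induced chemokine, had 452, 372, 373 and 462 against 156, 152, 157 and 171 (log2 fold change −1.37, adjusted p = 3.52e-09 from limma), in a block of chromosome 5 with a median of −0.40. The leukocyte markers summed to 896 to 1004 counts in Wt and 440 to 664 in the clone, most of it *Csf1r*, with *Adgre1*, *Itgam*, *Cd3e*, *Lyz2* and *Tyrobp* at most 3 in every library.

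**Figure D4:**
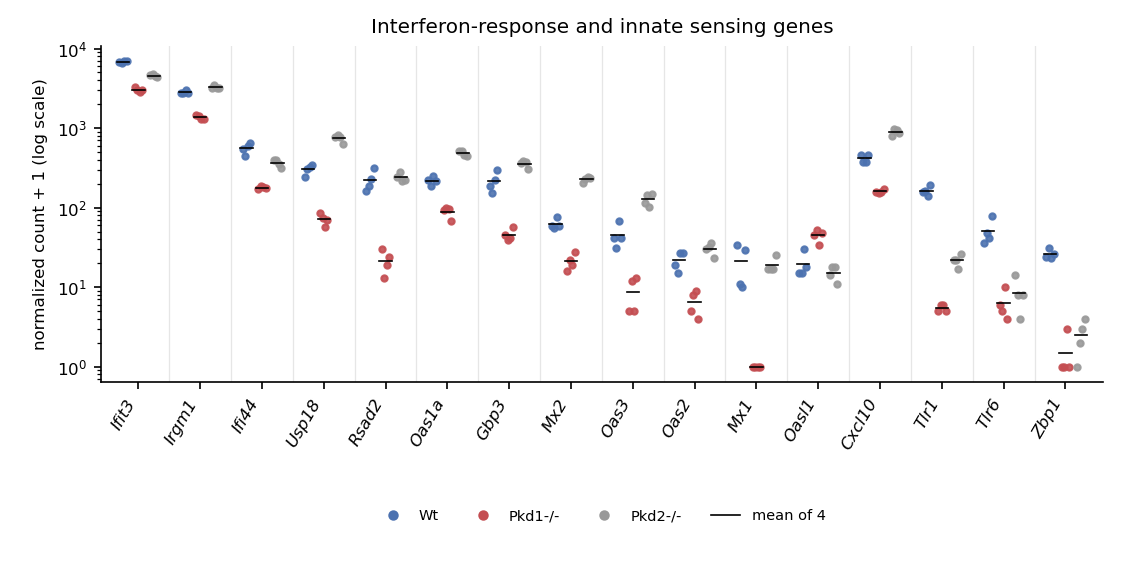
Normalized count plus 1 (log axis) of 16 interferon-response and innate sensing genes, 1 point per library, for Wt (blue), *Pkd1*-/- (red) and *Pkd2*-/- (grey) cells, with a line at the mean of 4. For the genes plotted other than *Oasl1*, each *Pkd1*-/- library lies below each Wt library, from *Ifit3* with 2868 to 3292 against 6602 to 6993 counts to *Zbp1* with 0 to 2 against 22 to 30.

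Iron handling genes passed lower in 8 of 17 tested members (47.1%) and higher in 3 (17.6%). *Lcn2*, a siderophore carrier that also marks tubular injury, had 2862, 2954, 2893 and 2616 counts in Wt and 710, 558, 643 and 558 in the clone (log2 fold change −2.20, adjusted p = 1.87e-12 from limma). The iron exporter gene *Slc40a1* fell, with 3668 to 4205 counts in Wt and 1564 to 1756 in the clone (log2 fold change −1.23, adjusted p = 4.59e-11 from limma). *Cp*, the ferroxidase ceruloplasmin, fell, with 142 to 218 counts in Wt and 13 to 36 in the clone (log2 fold change −2.94, adjusted p = 2.28e-08 from limma). All 3 had separate groups. The lipocalin receptor gene *Slc22a17* went the other way, with means of 1.5 counts in Wt and 85.8 in the clone, at least 28.6-fold higher. Tubular injury markers passed higher in 7 of 16 (43.8%) and lower in 5 (31.2%). *Anxa1*, encoding the anti-inflammatory protein annexin A1, had the largest rise in count of all called genes, 32347, 31385, 31037 and 28534 in Wt against 79397, 75687, 79960 and 74527 in the clone (log2 fold change 1.33, adjusted p = 3.11e-12 from limma). The metallothionein gene *Mt1*, which has a close paralog in *Mt2*, rose, with 896 to 1085 counts in Wt and 3968 to 4850 in the clone (log2 fold change 2.14, adjusted p = 3.75e-12 from limma).

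Cell cycle genes passed higher more often than lower. Of 47 tested members, 28 passed higher (59.6%) and 2 lower (4.26%), with 1 called in each direction and a median log2 fold change of 0.15. *Mki67*, a marker of cycling cells, had 4707, 4582, 5145 and 3461 counts in Wt and 5796, 7194, 6991 and 7440 in *Pkd1*-/- libraries (log2 fold change 0.62, adjusted p = 0.000277 from limma), with a *Pkd2*-/- mean of 7186. *Ccnd2*, cyclin D2, rose, with 9 to 19 counts in Wt and 52 to 61 in the clone (log2 fold change 2.12, adjusted p = 0.0007 from limma). *Cdk6*, a cyclin D kinase, fell, with 1406 to 1817 counts in Wt and 573 to 748 in the clone (log2 fold change −1.32, adjusted p = 5.96e-08 from limma), in a block of chromosome 5 with a median of −0.33. Among p53 targets and apoptosis genes, 14 of 35 passed lower (40%) and 4 higher (11.4%), with 2 and 0 called. *Casp12* and *Bik* fell by 3.74 and 2.18 on the log2 scale (limma adjusted p = 5.43e-07 and 1.59e-06). *Cdkn1a*, the cell cycle inhibitor p21, rose, with 6405 to 7289 counts in Wt and 8379 to 8891 in the clone (log2 fold change 0.32, adjusted p = 0.000125 from limma). The SV40 early proteins, which bind p53 and Rb, come with the parent line of all groups.

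Glycolysis genes passed higher in 19 of 34 tested members (55.9%) and lower in 6 (17.6%), with a median of 0.23. *Slc16a3*, the lactate exporter MCT4, had 82, 98, 69 and 124 counts in Wt and 2032, 2023, 2638 and 2284 in the clone (log2 fold change 4.60, standard error 0.13, adjusted p = 2.33e-13 from limma). *Ldha*, a lactate dehydrogenase subunit, rose, with 20612 to 23724 counts in Wt and 29296 to 36103 in the clone (log2 fold change 0.51, adjusted p = 4.64e-06 from limma). *Ldhb*, the other subunit, fell, with 1538 to 1916 counts in Wt and 638 to 757 in the clone (log2 fold change −1.37, adjusted p = 4.13e-10 from limma). The groups were separate for all 3. *Slc2a1*, the glucose transporter GLUT1, fell, with 6996 to 7593 counts in Wt and 3651 to 4253 in the clone (log2 fold change −0.90, adjusted p = 3.79e-10 from limma), and the hexokinase gene *Hk2* did not pass (log2 fold change −0.14, adjusted p = 0.24 from limma). Of 78 nuclear genes of the respiratory chain, 7 passed higher (8.97%) and 5 lower (6.41%), both below the background.

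The list of YAP and TAZ, coactivators that read cell density and tension, with their partners, upstream kinases and targets passed lower in 13 of 28 tested members (46.4%) and higher in 5 (17.9%). *Ankrd1* had 2093, 2065, 2060 and 2504 counts in Wt and 615, 717, 625 and 715 in the clone (log2 fold change −1.70, adjusted p = 3.44e-11 from limma). *Ccn2*, connective tissue growth factor, fell, with 5068 to 8736 counts in Wt and 2629 to 4433 in the clone (log2 fold change −0.95, adjusted p = 0.000563 from limma). *Axl*, a receptor tyrosine kinase, rose, with 919 to 1090 counts in Wt and 2337 to 2572 in the clone (log2 fold change 1.32, adjusted p = 5.41e-10 from limma). Actin regulators passed lower in 14 of 51 (27.5%) and higher in 8 (15.7%). Microtubule genes passed higher in 13 of 35 (37.1%) and lower in 6 (17.1%), and *Mapt*, the gene of tau, rose, with 14 to 27 counts in Wt and 129 to 195 in the clone (log2 fold change 3.02, adjusted p = 5.28e-09 from limma).

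The machinery of the cilium, in which polycystin-1 resides, was near the background. Of 28 intraflagellar transport genes, 6 passed higher and 6 lower (21.4% each) and 0 were called, with a median of 0.02. *Ift88* was lower by 0.17 on the log2 scale, with 718 to 738 counts in Wt and 622 to 663 in the clone (limma adjusted p = 0.0202), and the motor subunit gene *Kif3a* did not pass (log2 fold change −0.02, adjusted p = 0.814 from limma). Of 29 transition zone and BBSome genes, 8 passed higher (27.6%) and 5 lower (17.2%), with 0 called. For the 28 mTOR and TSC complex genes the numbers were 5 (17.9%) and 7 (25%), also with 0 called, and *Mtor* did not pass (log2 fold change 0.12, adjusted p = 0.177 from limma). Of 83 ribosomal protein genes, 5 passed higher (6.02%) and 4 lower (4.82%). Genes of cyclic AMP synthesis, breakdown and effectors, a pathway linked to cyst growth, passed higher in 7 of 23 (30.4%) and lower in 4 (17.4%). Of these, 1 was called higher and 2 lower. The phosphodiesterase gene *Pde4d* rose, with 82 to 113 counts in Wt and 378 to 420 in the clone (log2 fold change 1.98, adjusted p = 1.31e-09 from limma). *Pde8a*, another phosphodiesterase gene, had log2 fold changes of −3.83 to −2.14 over the alternative fits. The cyclase gene *Adcy1* fell from a mean of 21.25 to 8.75 counts (log2 fold change −1.35, adjusted p = 0.0232 from limma), and it did not pass in 4 alternative fits.

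Neighbouring genes of chromosome 5 shifted together in *Pkd1*-/- cells. In 275 blocks of about 50 tested genes in order of position, 10 of the 18 blocks of chromosome 5 had a median log2 fold change under −0.25 and 2 had one above 0.25, against 1 and 0 of the 257 blocks elsewhere. The lowest median was −0.40, at chr5:88886818-98884396, and the highest was 0.40, at chr5:137314558-139802653. The shift was not of one sign along the chromosome, since chr5:112343083-116008947 had a median of 0.24 and chr5:122237848-124491124 one of −0.39. Of the 919 tested genes of chromosome 5, 377 passed lower (41%) and 199 higher (21.7%). In *Pkd2*-/- cells the medians of the 18 blocks lay between −0.13 and 0.07. *Pkd2* lies on this chromosome, in a block with a median of −0.20, and fell, with 3438 to 4467 counts in Wt and 2545 to 2858 in the clone (log2 fold change −0.54, adjusted p = 5.81e-06 from limma). *Parm1*, a mucin-like membrane protein gene in a low block, fell, with 6440 to 7279 counts in Wt and 2485 to 2831 in the clone (log2 fold change −1.36, adjusted p = 1.11e-11 from limma). *Ints1*, an Integrator subunit gene in the highest block, rose, with 2855 to 3315 counts in Wt and 5532 to 6818 in the clone (log2 fold change 1.04, adjusted p = 1.52e-09 from limma), just under 2-fold without *Pkd1*-/- replicate 2.

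**Figure D5:**
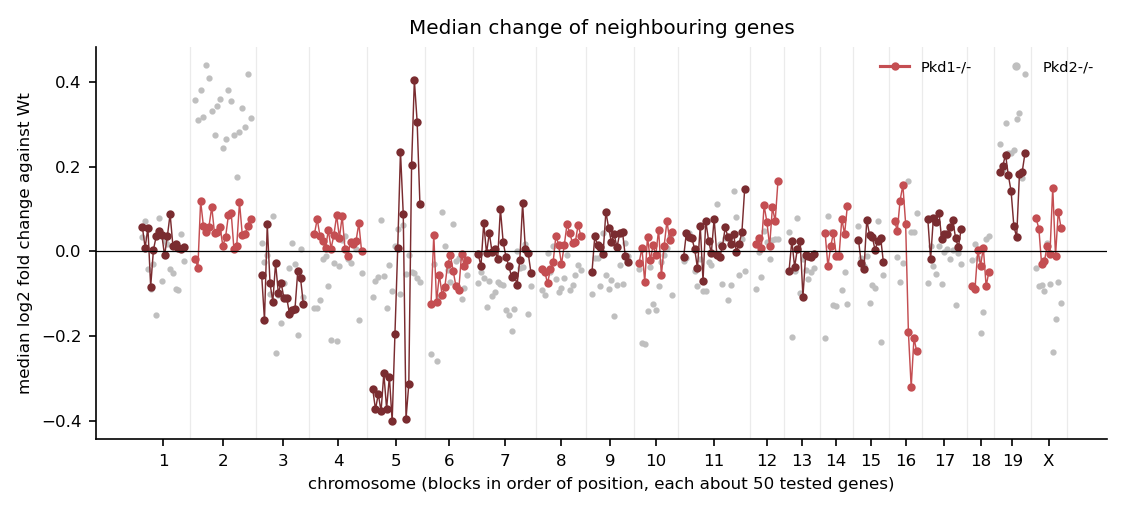
Median log2 fold change against Wt of each block of about 50 neighbouring tested genes, in order of position on chromosomes 1 to 19 and X, for *Pkd1*-/- (red shades alternating by chromosome) and *Pkd2*-/- (grey) cells. In *Pkd1*-/- cells the blocks of chromosome 5 run from −0.40 to 0.40, and those of chromosome 19 lie above 0.

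Chromosome 19 had a median of 0.17 over 481 genes in *Pkd1*-/- cells, with 46.6% higher and 9.77% lower, and a median of 0.28 in *Pkd2*-/- cells. On chromosome 16, the consecutive blocks over chr16:35770375-98031801 had medians of −0.19, −0.32, −0.20 and −0.24 in *Pkd1*-/- cells. The blocks before them had medians of 0.05 to 0.16. *Epha3* and *Epha6*, which rose, lie in the block with −0.32, at chr16:45205100-64771161. All 6 tested genes of the Y chromosome passed lower. *Ddx3y*, an RNA helicase, had 3709, 3195, 3524 and 3896 counts in Wt and 1142, 1213, 1149 and 1201 in the clone (log2 fold change −1.60, adjusted p = 2.78e-12 from limma). *Eif2s3y*, a translation initiation factor, had 2928, 2910, 2903 and 2878 against 1048, 975, 1082 and 1054 (log2 fold change −1.48, adjusted p = 4.23e-13 from limma). The histone demethylase genes *Kdm5d* and *Uty* were at 32.2% and 30.6% of the Wt mean. In *Pkd2*-/- cells *Ddx3y*, *Eif2s3y*, *Kdm5d* and *Uty* had means of 4919, 3881, 1479 and 2075 counts, against 3581, 2905, 1554 and 2113 in Wt. Fewer cells with the chromosome and less RNA per cell cannot be told apart in bulk RNA. Relative to the median of each member's block, the interferon list had a median of −0.51, and DNA copy number was not measured.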

How the data were processed

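RNA from 4 libraries each of Wt, *Pkd1*-/- and *Pkd2*-/- mIMCD3 cells had been processed by the authors. Per the labels, the submitters' processing notes name Trim Galore, FastQC, HISAT2, HTSeq, DESeq2 and StringTie (versions not given in the sources used here) and the builds mm10 and mm9. The deposited values are normalized counts, read counts divided by DESeq2 size factors and rounded to whole numbers, and were treated as a score and not as read counts, so no count model was used. The planned edgeR test for read counts did not apply. Depth per library could be estimated for 4 of the 8 libraries only, and intervals from counts are not given.

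Groups came from the sample titles. Genes with a mean of at least 10 over the 8 Wt and *Pkd1*-/- libraries were tested with limma 3.58.1 (R 4.3.3), with a variance trend, on log2(value + 1), over 12 libraries in 1 model. Fold changes are on this scale, which understates changes of low genes. Tests were two-sided, with Benjamini-Hochberg adjustment over all 13753 genes. Folds against a genotype with at most 3 counts in all 4 libraries are lower bounds against 3 counts. Of 47642 identifiers, 47223 matched the annotation (GRCm38, GENCODE M21). The pipeline was tested on simulated data.

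Members and gene lists were chosen with earlier results of these data known. Named genes are *Pkd1*, *Pkd2*, *Tsc2* and genes within 100 kb of the deletion, the 10 called protein-coding genes that rose or fell most, the 5 called genes with the largest rise and fall in count, key genes and up to 4 leading members of each of 66 lists, Y-linked genes and the 5 highest near-0 genes of each direction. The protein-coding genes that rose or fell most were taken only from those whose Wt and *Pkd1*-/- libraries did not overlap. A further 44 called members of 9 lists were added after their values were seen. Fewer than 80% of tested genes matched a promoter (69.9%), so the planned CpG and GC comparison is void and not given. Replicate numbers did not pair the libraries over the genes together, and the reported fit has no replicate block. A member of the interferon list is not reported here by name.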

Additional observations from a re-analysis of the deposited data

Results flagged for a closer look

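In 20 of 270 groups of 4 libraries, over the 135 genes named, 1 library stood apart from the other 3 by more than Dixon's criterion allows for the range of the group. Chance sets apart about 1 in 20 groups. *Ankrd1* had 2504 normalized counts in Wt replicate 4 and 2060 to 2093 in the others. *Atp6v1b1* had 437 normalized counts in *Pkd1*-/- replicate 2 and 528 to 544 in the others. *Axl* had 2337 normalized counts in *Pkd1*-/- replicate 1 and 2550 to 2572 in the others. *Col11a1* had 409 normalized counts in Wt replicate 3 and 335 to 346 in the others. *Dsg2* had 348 normalized counts in *Pkd1*-/- replicate 2 and 319 to 322 in the others. *Gata3* had 176 normalized counts in Wt replicate 2 and 236 to 248 in the others. *Ifit3b* had 2529 normalized counts in Wt replicate 3 and 2417 to 2432 in the others. *Irgm1* had 3043 normalized counts in Wt replicate 3 and 2745 to 2786 in the others. *Ldhb* had 757 normalized counts in *Pkd1*-/- replicate 1 and 638 to 646 in the others. *Mmp15* had 286 normalized counts in Wt replicate 1 and 236 to 241 in the others. *Oas1a* had 66 normalized counts in *Pkd1*-/- replicate 4 and 93 to 98 in the others. *Robo1* had 502 normalized counts in *Pkd1*-/- replicate 1 and 579 to 588 in the others. *Wnt6* had 203 normalized counts in *Pkd1*-/- replicate 3 and 152 to 158 in the others. The remaining cases were at 9 counts or fewer. *Cftr* had 6 normalized counts in *Pkd1*-/- replicate 1 and 0 in each of the other libraries. *Epha6* had 2 normalized counts in Wt replicate 1 and 0 in each of the other libraries. *Glul* had 1 normalized count in *Pkd1*-/- replicate 2 and 3 in each of the other libraries. *Ntng1* had 9 normalized counts in Wt replicate 4 and 0 in each of the other libraries. *Rorb* had 1 normalized count in Wt replicate 1 and 0 in each of the other libraries. *Sema5a* had 3 normalized counts in *Pkd1*-/- replicate 2 and 0 in each of the other libraries. *Zbp1* had 2 normalized counts in *Pkd1*-/- replicate 3 and 0 in each of the other libraries.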

How the results depend on the processing

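The log2 fold changes of 19 of the 453 named genes, *Kif3a* among them, took both signs over the alternatives, and 0 of these 19 had passed the limma test as reported. The number of genes called (782, of which 355 higher and 427 lower) stayed within 1.5 times under other pseudocounts, upper quartile rescaling, 8 libraries only or no variance trend. It was 1185 (564 higher) with a mean of at least 1, 1238 (589 higher, 649 lower) with no filter, 424 (176 higher, 248 lower) with a mean of at least 50, and 4906 (2466 higher, 2440 lower) with no fold threshold, since each of these changes the genes tested or counted. Without each library in turn, the values ranged over 760 to 796 called, 340 to 359 higher, 411 to 445 lower, 4199 to 4671 passed, and −4.29 to −4.06 for *Pkd1*. With the replicate number as a block, 785 genes were called (359 higher, 426 lower) and 5188 passed. Libraries with the same number had correlated deviations of 0.07, −0.06, 0.01 and 0.06, so the numbers show no pairing over the genes together. Single genes can differ from this. *Ccn1* and *Ccn2* rose with the replicate number in every genotype, *Ccn2* from 5068 to 8736 counts in Wt and from 2629 to 4433 in *Pkd1*-/- libraries. Leaving out chromosome 5, chosen after seeing the data, left 713 called. The highest block median was 0.68 with blocks of 30 genes and 0.25 with blocks of 100. With a mean of at least 20 or 100 in the other genotype, 36 or 6 genes were near 0 in *Pkd1*-/- cells and 23 or 2 in Wt cells. Over the named genes and all alternatives, 7412 values stayed on their side of the threshold, 168 no longer passed and 35 passed only under the alternative, and of the counts and medians of the lists 3502 stayed and 128 moved. Low counts limit the precision of genes under about 10 normalized counts.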
